A study of Rattus norvegicus with 8 samples.

Results

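The genes described here encode the proteins that carry glucose into the cell, break it down to pyruvate and lactate, pass pyruvate into the mitochondrion and oxidise it in the tricarboxylic acid (TCA) cycle. They were chosen by gene symbol from a fixed list of 54 genes, of which 50 had a row among the 19239 rows of the deposited table. Hk1, Pgam1, Pdha1 and Dlat were not analysed here. The samples were saphenous arteries (muscular type vessels of the leg) taken from Wistar rats, all male, for which the labels name no treatment. The 4 young samples came from animals of 10 to 12 days, each sample holding 4 arteries pooled from 2 animals, and the 4 adult samples came from animals of 2 to 3 months, each holding 2 arteries of 1 animal. The mRNA of each sample was measured on 1 Affymetrix Rat Gene 1.0 array, and every value is a log2 expression level, so that a difference of 1 is a doubling of the measured intensity.

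In glycolysis, glucose enters through carriers of the Slc2a family, is trapped by hexokinase and is split and oxidised to pyruvate, with phosphofructokinase as the main control point. Pyruvate then either becomes lactate, which leaves through monocarboxylate carriers of the Slc16a family, or enters the mitochondrion, where the pyruvate dehydrogenase complex feeds it into the TCA cycle. Arterial smooth muscle is known for forming much lactate even when oxygen is plentiful, while using oxidative metabolism for most of the energy of contraction.

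Of the 50 measured genes, 31 were higher and 4 were lower in adult arteries, and 15 did not pass the test (limma, adjusted p below 0.01 with Benjamini-Hochberg adjustment over all rows). The share called higher was 62.0%, against 16.7% of all rows, and the share called lower was 8.00%, against 16% of all rows. In 36 genes, or 72.0%, all 4 adult values lay apart from all 4 young values, as in 46% of all rows. A rise of at least 1.5-fold together with the adjusted p was found for 14 genes, or 28%, against 3.72% of all rows. The median difference between adult and young arteries was 0.39 over the 50 genes and 0.0024 over all rows. Averaged over the 50 genes, adult arteries had a level of 9.02 ± 0.039 (SD, n = 4) and young arteries one of 8.63 ± 0.046. The 4 genes called lower were Slc16a1, Ogdh, Aco1 and Idh1.

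**Figure D1:**
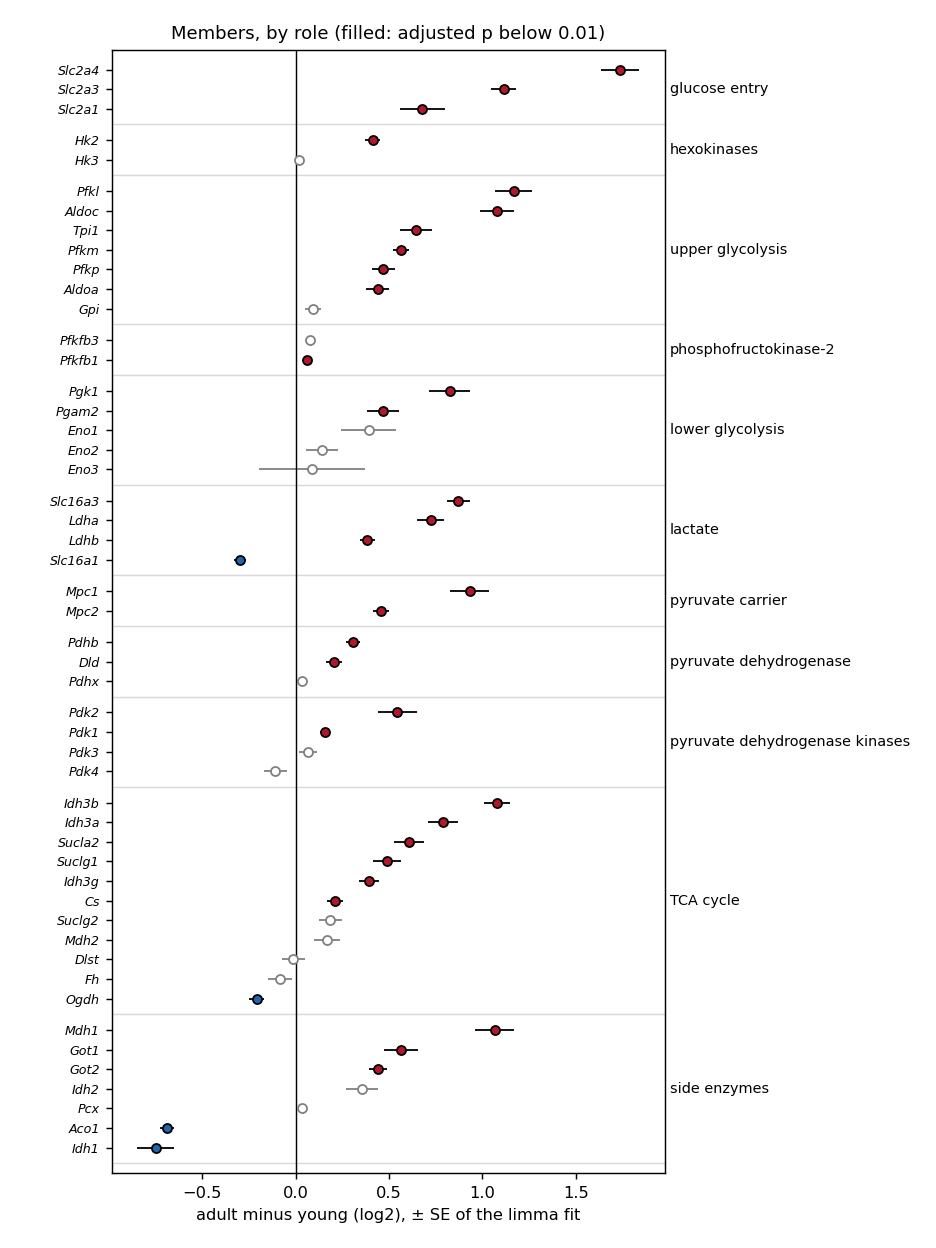
Difference between adult and young arteries on the log2 scale for the 50 measured genes, grouped by role. Points are the differences, bars their standard errors in the limma fit, red points passed adjusted p below 0.01 as higher in adult, blue points as lower, and open points did not pass. The points run from -0.75 for Idh1 to 1.74 for Slc2a4.

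The arteries held several cell types, and their marker genes differed between the ages as well. In such bulk samples, fewer cells of a type and less RNA per cell cannot be told apart. Of the 6 measured smooth muscle markers, 5 were higher in adult arteries, and their summed linear intensity was 40790 to 43710 in adult and 28079 to 29839 in young arteries. All 5 markers of proliferating cells were lower in adult arteries, with sums of 613 to 623 against 1534 to 1720. Endothelial markers summed to 1430 to 2207 in adult and 2985 to 5394 in young arteries, with 2 of 5 called lower. For fibroblasts, 2 markers were higher and 3 lower of 6, at sums of 20295 to 22831 against 25929 to 26477. Macrophage markers were higher for 3 of 4, at 919 to 1041 against 707 to 815. Nerve and Schwann cell markers were called lower for 1 of 5, at 983 to 1122 against 1602 to 4115. Adipocyte markers were called higher for 1 of 10, at 2588 to 3271 against 2173 to 2563. The 1 called was Pnpla2 (difference 0.78), and Lpl differed by 0.58, while Adipoq and Fabp4 differed by -0.35 and -0.31. The means of Adipoq and Fabp4 lay above the table median of 7.29 in young but not in adult arteries. Among young arrays, Adipoq was above it in replicate 2 alone (8.12). In adult replicate 3 both genes were above it (7.32 and 7.42). Of this list 8 of 10 markers, with Lep and Ucp1 among them, had an adult mean below that median, and 5 had a young mean below it. Over all rows, 16.7% were called higher and 16% lower. The part of these lists in the results was not tested.

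To show the regulatory sequence of genes that rose, the 250 bases before the annotated start are printed for Pfkl, Idh3b and Mdh1, the genes with the largest rise of their role that have a promoter entry, and for Ldha, which was added after its motifs were seen. Capitals mark matches to the motifs searched on both strands: the hypoxia response element core ACGTG, the E-box CACGTG, which contains that core, the GC box GGGCGG, the estrogen-related receptor site AAGGTCA and the TATA box TATAAA. The sequences are those of RefSeq on GRCr8, at chr20:10663715-10663964 on the plus strand for Pfkl, chr3:137939991-137940240 on the minus strand for Idh3b, chr14:99847228-99847477 on the minus strand for Mdh1 and chr1:106507842-106508091 on the plus strand for Ldha.
Pfkl: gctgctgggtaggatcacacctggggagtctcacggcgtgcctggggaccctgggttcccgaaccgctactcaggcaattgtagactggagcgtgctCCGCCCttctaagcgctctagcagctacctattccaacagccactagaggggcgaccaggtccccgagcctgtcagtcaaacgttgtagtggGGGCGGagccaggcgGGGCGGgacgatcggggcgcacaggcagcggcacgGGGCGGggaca
Idh3b: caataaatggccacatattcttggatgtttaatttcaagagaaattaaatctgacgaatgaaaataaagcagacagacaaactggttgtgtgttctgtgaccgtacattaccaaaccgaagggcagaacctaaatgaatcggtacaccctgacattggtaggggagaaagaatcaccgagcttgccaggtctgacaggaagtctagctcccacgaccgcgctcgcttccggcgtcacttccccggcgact
Mdh1: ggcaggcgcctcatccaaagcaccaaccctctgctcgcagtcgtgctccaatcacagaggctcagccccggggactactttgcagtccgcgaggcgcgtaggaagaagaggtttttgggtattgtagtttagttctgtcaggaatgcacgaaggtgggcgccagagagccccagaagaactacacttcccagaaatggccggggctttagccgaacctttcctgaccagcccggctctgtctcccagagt
Ldha: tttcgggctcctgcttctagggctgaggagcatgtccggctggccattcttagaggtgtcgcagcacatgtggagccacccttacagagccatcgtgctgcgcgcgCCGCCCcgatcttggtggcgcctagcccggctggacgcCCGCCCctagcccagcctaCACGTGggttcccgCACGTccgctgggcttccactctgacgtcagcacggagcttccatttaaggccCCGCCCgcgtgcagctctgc

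The Pfkl sequence held 4 GC boxes, starting 153, 61, 46 and 11 bases before the start, and no other motif of the 5. Idh3b and Mdh1 held none of them in this window. Ldha held the E-box at 87 bases before the start, with the hypoxia core read from it on both strands, a further hypoxia core on the minus strand at 73, and GC boxes at 144, 106 and 20. A promoter entry was found for 45 of the 50 genes, and Slc2a3, Slc2a4, Pgk1, Idh3a and Pcx had none. The hypoxia core was in 13 of the 45 promoters (28.9%) and in 18.8% of all 14768 promoters of the same length. The E-box was in 6 (13.3%) against 6.81%, the GC box in 26 (57.8%) against 45.6%, the TATA box in 2 (4.44%) against 11.2% and the estrogen-related receptor site in 0 against 2.90%. Among the genes called higher, 27 had a promoter entry and 7 of them (25.9%) held the hypoxia core. The GC box was in 12 of these 27 (44.4%) and the E-box in 3 (11.1%). The TATA box was in 2 (7.41%) and the estrogen-related receptor site in 0. These matches are letters in a window and were not tested as binding sites.

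The 3 glucose carriers among the 50 genes, Slc2a1, Slc2a3 and Slc2a4, rose, while carriers of the family outside them did not all do so. Slc2a4 (GLUT4), the insulin-responsive carrier of muscle and fat, was at 10.79, 10.49, 10.43 and 10.66 in adult replicates 1 to 4 and at 8.80, 8.66, 8.95 and 9.0 in young replicates 1 to 4. The groups were far apart, and the difference of 1.74 ± 0.10 (SE), or 3.34-fold, was the largest of the 50 genes (limma adjusted p = 1.71e-05). Slc2a3 (GLUT3), a carrier of high glucose affinity best known from neurons, was at 9.12, 8.87, 8.90 and 8.82 in adult and at 7.75, 7.82, 7.79 and 7.89 in young arteries. It rose by 1.11 ± 0.07, or 2.16-fold (limma adjusted p = 1.9e-05). Slc2a1 (GLUT1), the carrier of basal glucose uptake, was at 8.75, 8.41, 8.50 and 8.93 in adult and at 7.91, 7.99, 7.85 and 8.12 in young arteries. Its values were the most scattered of the 3 in adult arteries, without overlap between the ages, and the difference was 0.68 ± 0.12, or 1.6-fold (limma adjusted p = 0.00289). Without young replicate 1 or without young replicate 3 the Slc2a1 call was lost, with an adjusted p of at most 0.0108. Of 5 further carriers on the list of other pathway genes, Slc2a12 rose by 0.26 ± 0.03, Slc2a10 was lower at -0.44 ± 0.09, and Slc2a2 and Slc2a5 did not pass. Slc2a8 passed at 0.09 ± 0.02 (limma adjusted p = 0.00931), but kept the call in 2 of the 16 alternatives, those without adult replicate 1 and without adult replicate 3. Within arrays, the rise of Slc2a4 exceeded that of Slc2a1 by 1.06 ± 0.12 (exact permutation p = 0.0286, adjusted p = 0.0352).

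The p of 0.0286 is the smallest that 4 arrays against 4 can give, over 70 relabelings, and each adjusted p of an isoform pair was taken over the 16 pairs with both rows. Of these pairs, 13 passed at an adjusted p below 0.05, while Eno3 and Eno1, Pfkfb3 and Pfkfb1, and Got1 and Got2 did not pass. All 13 had adult and young values apart, which a p of 0.0286 requires. At this smallest p, the adjusted p of a pair depends on how many of the 16 pairs reach it.

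**Figure D2:**
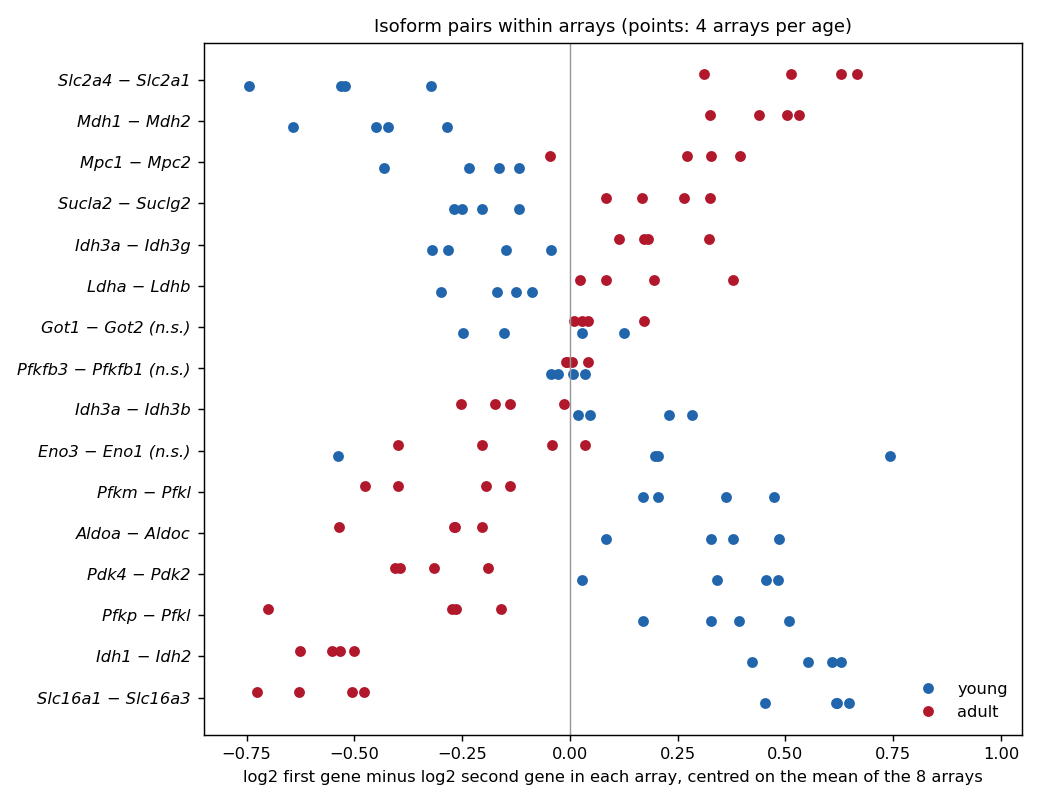
Log2 level of the first gene minus that of the second in each array, centred on the mean of the 8 arrays, for 16 isoform or partner pairs ordered by the difference between the ages. Points are arrays, 4 per age, and n.s. marks the 3 pairs that did not pass. Adult values lie to the right of young values at the top, where Slc2a4 rose more than Slc2a1, and to the left at the bottom, where Slc16a1 fell and Slc16a3 rose.

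Of the hexokinases, which phosphorylate glucose on entry, Hk2, the isoform of insulin-sensitive muscle, rose and Hk3 did not pass. Hk2 was at 7.49, 7.50, 7.50 and 7.67 in adult and at 7.13, 7.14, 7.13 and 7.12 in young arteries. The young values were nearly alike and all below the adult ones, and the difference was 0.41 ± 0.04, or 1.33-fold (limma adjusted p = 0.00016). Hk3 differed by 0.02 ± 0.01 (adjusted p = 0.324), near the lower end of the measured range at both ages.

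In upper glycolysis, from glucose 6-phosphate to the triose phosphates, 6 of 7 genes rose. The 3 phosphofructokinase genes, whose enzymes commit the sugar to breakdown, all rose, and Pfkl, the liver type subunit, did so most. Pfkl was at 8.81, 8.78, 9.01 and 9.19 in adult and at 7.70, 7.81, 7.70 and 7.91 in young arteries. No adult value came near a young one, and the difference was 1.17 ± 0.10, or 2.25-fold (limma adjusted p = 8.12e-05). Pfkm, the muscle type subunit, was at 8.79, 8.81, 8.79 and 8.88 in adult and at 8.24, 8.15, 8.35 and 8.29 in young arteries, a difference of 0.56 ± 0.04. Pfkp, the platelet type subunit, ranged from 7.64 to 7.91 in adult and from 7.23 to 7.36 in young arteries, a difference of 0.47 ± 0.06. Within arrays, the change of Pfkm minus that of Pfkl was -0.61 ± 0.11, and that of Pfkp minus that of Pfkl was -0.70 ± 0.14 (exact permutation p = 0.0286 and adjusted p = 0.0352 for both).

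Aldoc, the brain type aldolase, rose more than the ubiquitous muscle type Aldoa. Aldoc was at 8.67, 8.99, 8.78 and 8.70 in adult and at 7.60, 7.61, 7.72 and 7.90 in young arteries. Every adult value was above every young one, and the difference was 1.08 ± 0.09, or 2.11-fold (limma adjusted p = 8.61e-05). Aldoa ranged from 12.15 to 12.25 in adult and from 11.67 to 11.96 in young arteries and rose by 0.44 ± 0.06. The change of Aldoa minus that of Aldoc within arrays was -0.64 ± 0.11 (exact permutation p = 0.0286, adjusted p = 0.0352). Tpi1, which interconverts the triose phosphates, was at 9.38, 9.54, 9.53 and 9.56 in adult and at 8.67, 8.77, 8.93 and 9.05 in young arteries. It rose by 0.65 ± 0.09, or 1.57-fold, again without overlap. Gpi, the isomerase of the second step, ranged from 11.86 to 11.98 in adult and from 11.80 to 11.96 in young arteries, and the difference of 0.09 ± 0.04 did not pass (adjusted p = 0.117).

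The bifunctional enzymes that set the level of fructose 2,6-bisphosphate, the activator of phosphofructokinase, differed little. Pfkfb3, the isoform known for driving glycolysis in endothelial and dividing cells, was at 7.41, 7.38, 7.42 and 7.41 in adult and at 7.29, 7.39, 7.33 and 7.31 in young arteries. Young replicate 2 lay within the adult range, and the difference of 0.07 ± 0.02 did not pass (limma adjusted p = 0.0231) but passed when young replicate 2 was left out. Pfkfb1 ranged from 7.01 to 7.06 in adult and from 6.97 to 7.0 in young arteries, close to the lowest value of the table, 6.8. Its difference of 0.06 ± 0.01 passed (limma adjusted p = 0.00826), a call lost when any array other than adult replicate 1 was left out, with an adjusted p of up to 0.0255.

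In lower glycolysis, from 1,3-bisphosphoglycerate to phosphoenolpyruvate, 2 of 5 genes rose. Pgk1, which makes the first ATP of the pathway, was at 9.22, 9.28, 9.72 and 9.43 in adult and at 8.48, 8.57, 8.64 and 8.65 in young arteries. Adult replicate 3 was highest, the groups did not overlap, and the difference was 0.82 ± 0.11, or 1.77-fold (limma adjusted p = 0.000682). Pgam2, the muscle type phosphoglycerate mutase, ranged from 7.61 to 8.04 in adult and from 7.25 to 7.35 in young arteries and rose by 0.47 ± 0.09 (limma adjusted p = 0.00335). That call was lost without adult replicate 2 or without young replicate 1, 2 or 3, with an adjusted p of up to 0.0115.

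None of the 3 enolases passed. Eno1, the ubiquitous form, was at 9.50, 9.13, 9.56 and 9.39 in adult and at 8.86, 8.86, 8.91 and 9.39 in young arteries, so that young replicate 4 alone lay among the adult values. The difference was 0.39 ± 0.15 (limma adjusted p = 0.0652), and without young replicate 4 it was 0.52 and passed (adjusted p = 0.00772). It was 0.46 and also passed with ribosomal protein centring, where the adjusted p did not reflect the gene's own spread. Erythroid markers, of which 1 of 5 was called lower in adult arteries, were highest in the same array. Their mean log2 level was 9.65 in young replicate 4, 9.08 to 9.33 in the other young arrays and 8.68 to 8.96 in adult arrays, with summed linear intensities of 8685 to 14301 in young and 4924 to 7333 in adult arteries. The part of blood cells in the Eno1 values was not tested.

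Eno3, the enolase of skeletal muscle and heart, was at 8.34, 8.21, 8.21 and 8.40 in adult and at 8.11, 7.37, 8.70 and 8.63 in young arteries. The young values spanned the adult range on both sides, and the difference was 0.09 ± 0.28 (adjusted p = 0.831), which turned to -0.19 without young replicate 2. Skeletal muscle markers were also lowest among the young arrays in replicate 2, at a mean log2 level of 7.56 against 7.87 to 8.08 in the other 3, while adult arrays lay between 7.52 and 7.58. Of the 13 measured markers of this list, 1 was called lower in adult arteries, the summed linear intensity was 3717 to 4267 in adult and 3813 to 6104 in young arteries, and 9 of the 13 had an adult mean below the table median. Their part in the Eno3 values was not tested. The marker level was lower in every adult array than in young replicates 1, 3 and 4. Slc2a4, a gene that skeletal muscle also expresses, was lowest among young arrays in replicate 2 as well, at 8.66. The Slc2a4 difference was 1.67 without that array, and the part of skeletal muscle in it was not tested. Eno2, the neuronal form, differed by 0.14 ± 0.08 (adjusted p = 0.216).

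**Figure D3:**
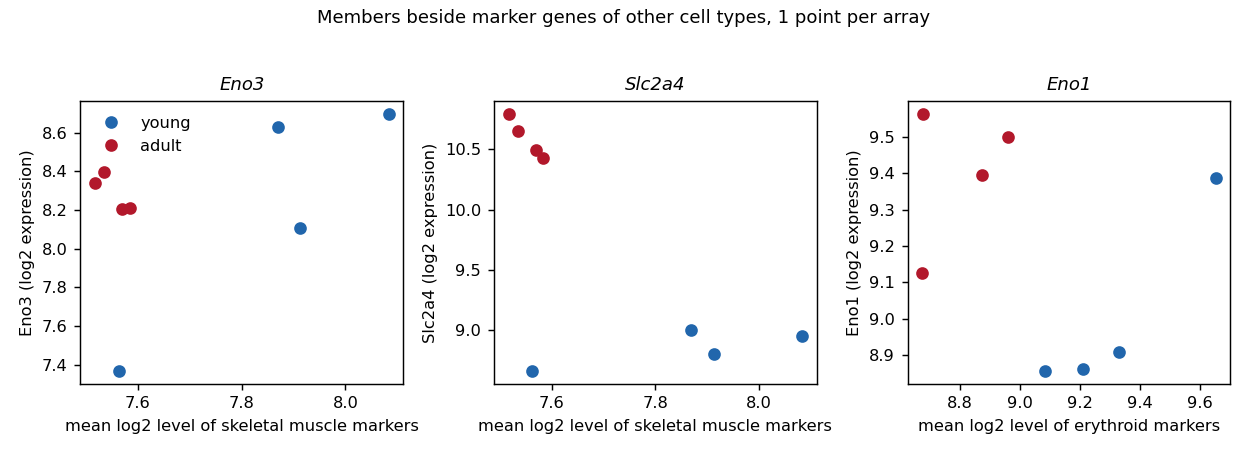
Log2 expression of Eno3, Slc2a4 and Eno1 against the mean log2 level of the skeletal muscle markers (left and middle) or erythroid markers (right) in the same array. Each point is 1 array, with young arrays in blue and adult arrays in red. Young replicate 2 is low in Eno3 and in the skeletal muscle markers, young replicate 4 is high in Eno1 and in the erythroid markers, and Slc2a4 is above 10.4 in every adult array.

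Both lactate dehydrogenase subunits rose, Ldha more than Ldhb. Ldha, the subunit prevailing in muscle, which favours the formation of lactate, was at 11.03, 11.02, 11.17 and 10.95 in adult and at 10.14, 10.34, 10.44 and 10.36 in young arteries. The groups were apart by more than either spread, with a difference of 0.72 ± 0.07, or 1.65-fold (limma adjusted p = 0.000182). Ldhb, the subunit prevailing in heart, was at 9.34, 9.44, 9.30 and 9.44 in adult and at 8.94, 8.97, 9.04 and 9.03 in young arteries, a difference of 0.38 ± 0.04, or 1.30-fold (limma adjusted p = 0.000202). The rise of Ldha exceeded that of Ldhb by 0.34 ± 0.09 (exact permutation p = 0.0286, adjusted p = 0.0352).

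Of the monocarboxylate carriers, Slc16a3 rose and Slc16a1 fell, and Slc16a7 (MCT2), which is outside the 50 genes, rose by 0.88 ± 0.11, or 1.84-fold (limma adjusted p = 0.000587). Slc16a3 (MCT4), the carrier of lactate-exporting cells, was at 8.46, 8.33, 8.33 and 8.45 in adult and at 7.50, 7.48, 7.42 and 7.68 in young arteries, and rose by 0.87 ± 0.06, or 1.83-fold (limma adjusted p = 3.74e-05). Slc16a1 (MCT1), the widely expressed carrier of higher lactate affinity, ranged from 7.26 to 7.39 in adult and from 7.57 to 7.67 in young arteries, and fell by 0.30 on the log2 scale (SE 0.03, limma adjusted p = 0.000357). That call was kept with each of the 8 arrays left out in turn. It was lost when arrays were centred on ribosomal protein genes (limma adjusted p = 0.0569), where the adjusted p did not reflect the gene's own spread. Slc16a1 minus Slc16a3 changed by -1.17 ± 0.07 within arrays, the largest change of the 16 pairs (exact permutation p = 0.0286, adjusted p = 0.0352).

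**Figure D4:**
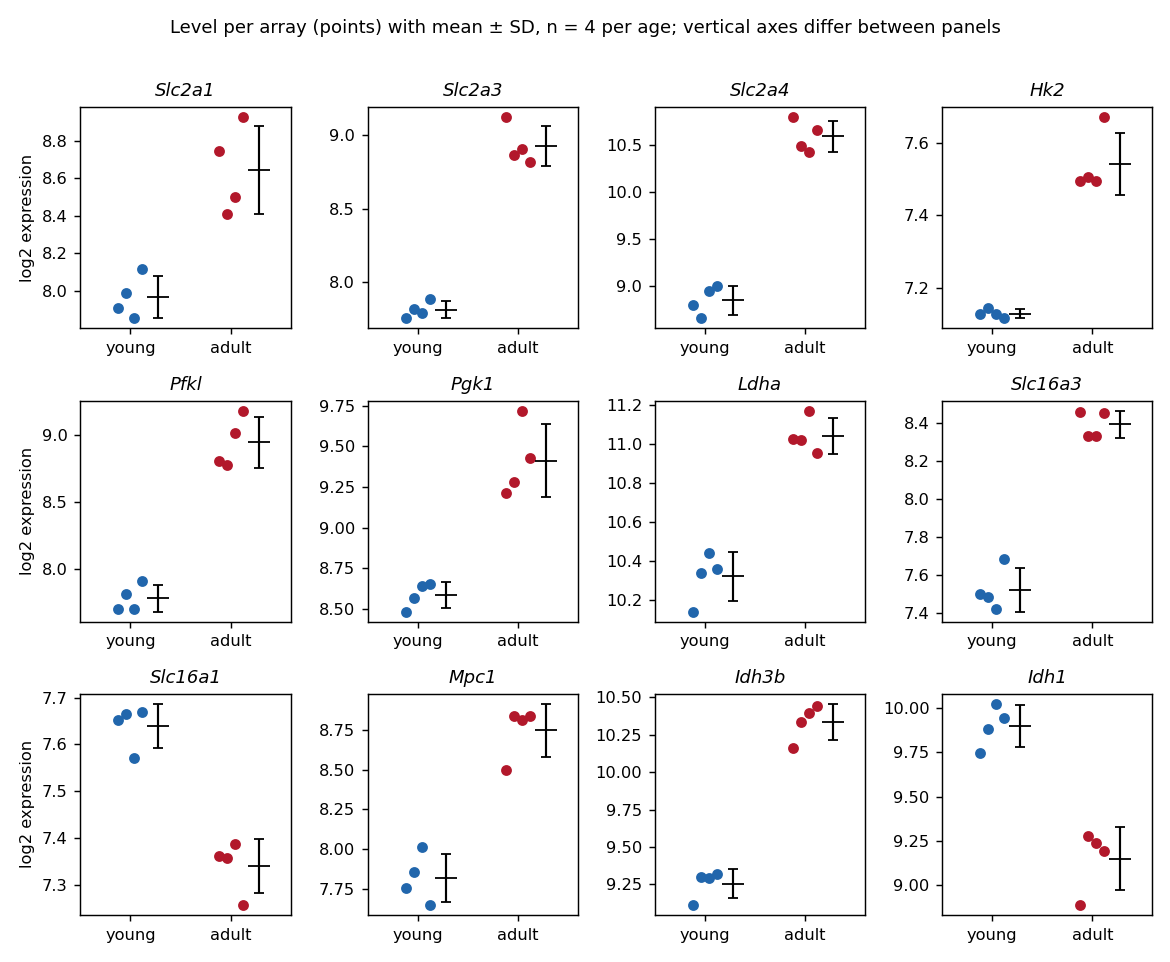
Log2 expression per array of 12 genes from glucose entry to the TCA cycle, with young arrays in blue, adult arrays in red and the mean ± SD (n = 4) as black bars. Vertical axes differ between panels. In all 12 panels the 4 adult values lie apart from the 4 young values, lower for Slc16a1 and Idh1 and higher for the others.

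Both subunits of the mitochondrial pyruvate carrier rose. Mpc1 was at 8.50, 8.84, 8.81 and 8.84 in adult and at 7.76, 7.86, 8.01 and 7.65 in young arteries. Adult replicate 1 was the lowest adult array but still above every young one, and the difference was 0.93 ± 0.10, or 1.91-fold (limma adjusted p = 0.000303). Mpc2 was at 8.43, 8.45, 8.30 and 8.39 in adult and at 7.87, 7.90, 8.01 and 7.96 in young arteries, a rise of 0.46 ± 0.04, or 1.37-fold (limma adjusted p = 0.000123). Although the subunits act as a pair, the rise of Mpc1 exceeded that of Mpc2 by 0.47 ± 0.12 (exact permutation p = 0.0286, adjusted p = 0.0352).

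For the pyruvate dehydrogenase complex, which turns pyruvate into acetyl-CoA, the differences were small. Pdhb, the beta subunit of the first enzyme, rose by 0.31 ± 0.04, and Dld, the lipoamide dehydrogenase shared with other complexes, rose by 0.21 ± 0.04 (limma adjusted p = 0.00609). The Dld call was lost without adult replicate 2, 3 or 4 or young replicate 1, 2 or 4, with an adjusted p of up to 0.0195. Pdhx, the binding protein of the complex, differed by 0.03 ± 0.03 and did not pass (adjusted p = 0.364).

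Of the 4 kinases that switch the complex off, Pdk2 and Pdk1 rose and Pdk3 and Pdk4 did not pass. Pdk2, the widely expressed isoform, was at 8.98, 8.98, 8.76 and 8.79 in adult and at 8.29, 8.14, 8.31 and 8.61 in young arteries. Young replicate 4 came closest to the adult values, without overlap, and the difference was 0.54 ± 0.11, or 1.46-fold (limma adjusted p = 0.00455). The Pdk2 call was lost without adult replicate 1, 2 or 4 or young replicate 1, 2 or 3, with an adjusted p of up to 0.0157. Pdk1, known as a target of the hypoxia-inducible factor, was at 7.68, 7.66, 7.61 and 7.68 in adult and at 7.53, 7.54, 7.45 and 7.49 in young arteries, a rise of 0.15 ± 0.03 (limma adjusted p = 0.00236) that did not pass with ribosomal protein centring. In that setting the adjusted p did not reflect the gene's own spread. Pdk3 was at 7.75, 7.58, 7.55 and 7.59 in adult and at 7.47, 7.53, 7.61 and 7.60 in young arteries, with overlapping groups and a difference of 0.07 ± 0.05 (adjusted p = 0.332). Pdk4, the isoform induced by fasting and fatty acids, was at 8.25, 8.34, 8.25 and 8.07 in adult and at 8.44, 8.26, 8.32 and 8.31 in young arteries, a difference of -0.11 ± 0.06 that did not pass (adjusted p = 0.197). Pdk4 minus Pdk2 changed by -0.65 ± 0.12 within arrays (exact permutation p = 0.0286, adjusted p = 0.0352).

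Of the 11 measured TCA cycle genes, 6 rose, Ogdh fell and 4 did not pass. The 3 subunits of the NAD-dependent isocitrate dehydrogenase, a rate-controlling enzyme of the cycle, all rose. Idh3b was at 10.16, 10.34, 10.39 and 10.44 in adult and at 9.11, 9.30, 9.29 and 9.32 in young arteries, a rise of 1.08 ± 0.07, or 2.11-fold (limma adjusted p = 2.76e-05). Idh3a, the catalytic subunit, was at 9.37, 9.51, 9.72 and 9.53 in adult and at 8.74, 8.87, 8.66 and 8.71 in young arteries, a rise of 0.79 ± 0.08, or 1.73-fold (limma adjusted p = 0.000189). For both genes every adult array was well above every young one. Idh3g ranged from 10.43 to 10.66 in adult and from 10.13 to 10.23 in young arteries and rose by 0.39 ± 0.05. Within arrays the rises differed, with Idh3a exceeding Idh3g by 0.40 ± 0.08 and differing from Idh3b by -0.29 ± 0.08 (exact permutation p = 0.0286 and adjusted p = 0.0352 for both). With the lowest intensity subtracted, the difference of Idh3a from Idh3b was -0.26 and did not pass (exact permutation test, adjusted p = 0.105).

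Succinyl-CoA ligase, which makes ATP or GTP according to its beta subunit, showed a split of the same kind. Sucla2, the ATP-forming subunit, was at 8.60, 8.82, 8.95 and 8.91 in adult and at 8.18, 8.32, 8.20 and 8.15 in young arteries and rose by 0.61 ± 0.08, or 1.52-fold (limma adjusted p = 0.00068). Suclg1, the shared alpha subunit, rose by 0.49 ± 0.08. Suclg2, the GTP-forming subunit, differed by 0.19 ± 0.06 and did not pass (limma adjusted p = 0.0393), though it passed without adult replicate 1. Sucla2 rose more than Suclg2 within arrays, by 0.42 ± 0.06 (exact permutation p = 0.0286, adjusted p = 0.0352).

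Cs, citrate synthase, which is often used as a measure of mitochondrial content, was at 11.08, 11.17, 11.27 and 11.23 in adult and at 10.99, 10.96, 11.02 and 10.93 in young arteries. The groups lay close together without overlap, and the rise was 0.21 ± 0.04, or 1.16-fold (limma adjusted p = 0.00471). That call was lost without adult replicate 2, 3 or 4 or young replicate 1, 2 or 4, with an adjusted p of up to 0.0155. Ogdh, the first enzyme of the oxoglutarate dehydrogenase complex, ranged from 10.56 to 10.61 in adult and from 10.70 to 10.90 in young arteries and fell by 0.21 (SE 0.04, limma adjusted p = 0.00425). The Ogdh call was lost without each of the 4 adult arrays in turn and without young replicate 1 or 3, with an adjusted p of up to 0.0144. Dlst, the second enzyme of that complex, differed by -0.01 ± 0.06, a sign that turned in 5 of the 16 alternatives. Fh, fumarase, differed by -0.08 ± 0.07 (adjusted p = 0.338), and Mdh2, the mitochondrial malate dehydrogenase, by 0.17 ± 0.07 (adjusted p = 0.0898).

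Among enzymes beside the cycle, the 4 genes of the malate-aspartate shuttle, which carries reducing equivalents of cytosolic NADH into the mitochondrion, were Mdh1, Mdh2, Got1 and Got2, and all but Mdh2 passed as higher. Mdh1, the cytosolic enzyme, was at 10.21, 10.48, 10.56 and 10.67 in adult and at 9.36, 9.52, 9.49 and 9.28 in young arteries, a rise of 1.07 ± 0.10, or 2.09-fold (limma adjusted p = 0.000165). It rose more than Mdh2 by 0.90 ± 0.09 within arrays (exact permutation p = 0.0286, adjusted p = 0.0352). Got1, the cytosolic aspartate aminotransferase, was at 8.65, 8.73, 8.60 and 8.78 in adult and at 7.96, 7.97, 8.31 and 8.25 in young arteries, a rise of 0.57 ± 0.09, or 1.48-fold (limma adjusted p = 0.00182). Got2, its mitochondrial counterpart, rose by 0.44 ± 0.05, and the difference between the rises of Got1 and Got2, 0.12 ± 0.09, did not pass (exact permutation p = 0.229, adjusted p = 0.261).

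Cytosolic enzymes of citrate and isocitrate fell. Idh1, the cytosolic NADP-dependent isocitrate dehydrogenase, was at 8.89, 9.28, 9.24 and 9.19 in adult and at 9.75, 9.88, 10.02 and 9.94 in young arteries, and fell by 0.75 (SE 0.10), being 1.68-fold higher in young arteries (limma adjusted p = 0.000649). Aco1, the cytosolic aconitase that also acts as an iron-regulatory protein, was at 8.76, 8.65, 8.70 and 8.64 in adult and at 9.30, 9.41, 9.40 and 9.41 in young arteries. It was 1.62-fold higher in young arteries, with no adult value near a young one (difference -0.69 ± 0.04, limma adjusted p = 1.13e-05). Idh2, the mitochondrial NADP-dependent enzyme, was at 10.92, 11.30, 11.23 and 11.30 in adult and at 10.81, 10.82, 10.90 and 10.80 in young arteries. Adult replicate 1 lay just above the young values, and the difference of 0.36 ± 0.08 missed the threshold (limma adjusted p = 0.0115) but was 0.44 and passed without that array. With all arrays kept, it also passed with an intensity trend, array weights, the lowest intensity subtracted or the dimmest rows removed (limma adjusted p from 0.00488 to 0.00717). It passed with ribosomal protein centring too, where the adjusted p did not reflect the gene's own spread. Idh1 minus Idh2 changed by -1.11 ± 0.05 within arrays (exact permutation p = 0.0286, adjusted p = 0.0352). Pcx, pyruvate carboxylase, which refills the cycle, was at 7.17, 7.09, 7.13 and 7.13 in adult and at 7.06, 7.15, 7.10 and 7.05 in young arteries, with overlapping groups and a difference of 0.04 ± 0.02 (adjusted p = 0.292).

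Adult replicate 1 was the lowest adult array in 17 of the 31 genes called higher and in 13 of the 20 genes from the pyruvate carrier to the TCA cycle, where its mean lay 0.08 below the adult mean. Without adult replicate 1, 32 genes were called higher and 3 lower. With any other single array left out, 25 to 29 were called higher and 3 or 4 lower. Of the 35 calls, 28 were kept with each of the 8 arrays left out in turn.

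Further genes of the same pathways, from a list of 84 with 80 measured, had 32 members higher (40.0%, against the same 16.7% of all rows). Of the others, 10 were lower (12.5%, against 16% of all rows) and 38 did not pass, and the median difference of the list was 0.10. Genes of glycogen metabolism were higher for 10 of 13 and lower for 0, with Gbe1, Phka1 and Gys2 not passing. Gyg1, glycogenin, the primer of glycogen, was at 10.87 to 11.17 in adult and 9.65 to 9.85 in young arteries and rose by 1.26 ± 0.07. Ppp1r3c, a subunit that targets protein phosphatase 1 to glycogen, rose by 1.17 ± 0.07. Pygm, the muscle glycogen phosphorylase, rose by 1.06 ± 0.21, from 8.84 to 9.83 in young to 10.26 to 10.59 in adult arteries, with young replicate 2 the lowest array as for Eno3. The Pygm call was lost without each of the 4 adult arrays in turn and without young replicate 1, with an adjusted p of up to 0.0181.

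Steps that the 50 genes leave out were read from the same list. Pkm, pyruvate kinase, rose by 0.76 ± 0.08, from young values of 6.90 to 7.02 near the lowest of the table. The 4 subunits of succinate dehydrogenase rose, Sdha by 0.99 ± 0.07, Sdhd by 0.96 ± 0.08, Sdhc by 0.83 ± 0.07 and Sdhb by 0.48 ± 0.09. The Sdhb call was lost without young replicate 1, 3 or 4, with an adjusted p of up to 0.0115. Bsg, basigin, the chaperone that Slc16a1 and Slc16a3 need at the membrane, was lower by a difference of -0.38 ± 0.04.

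**Figure D5:**
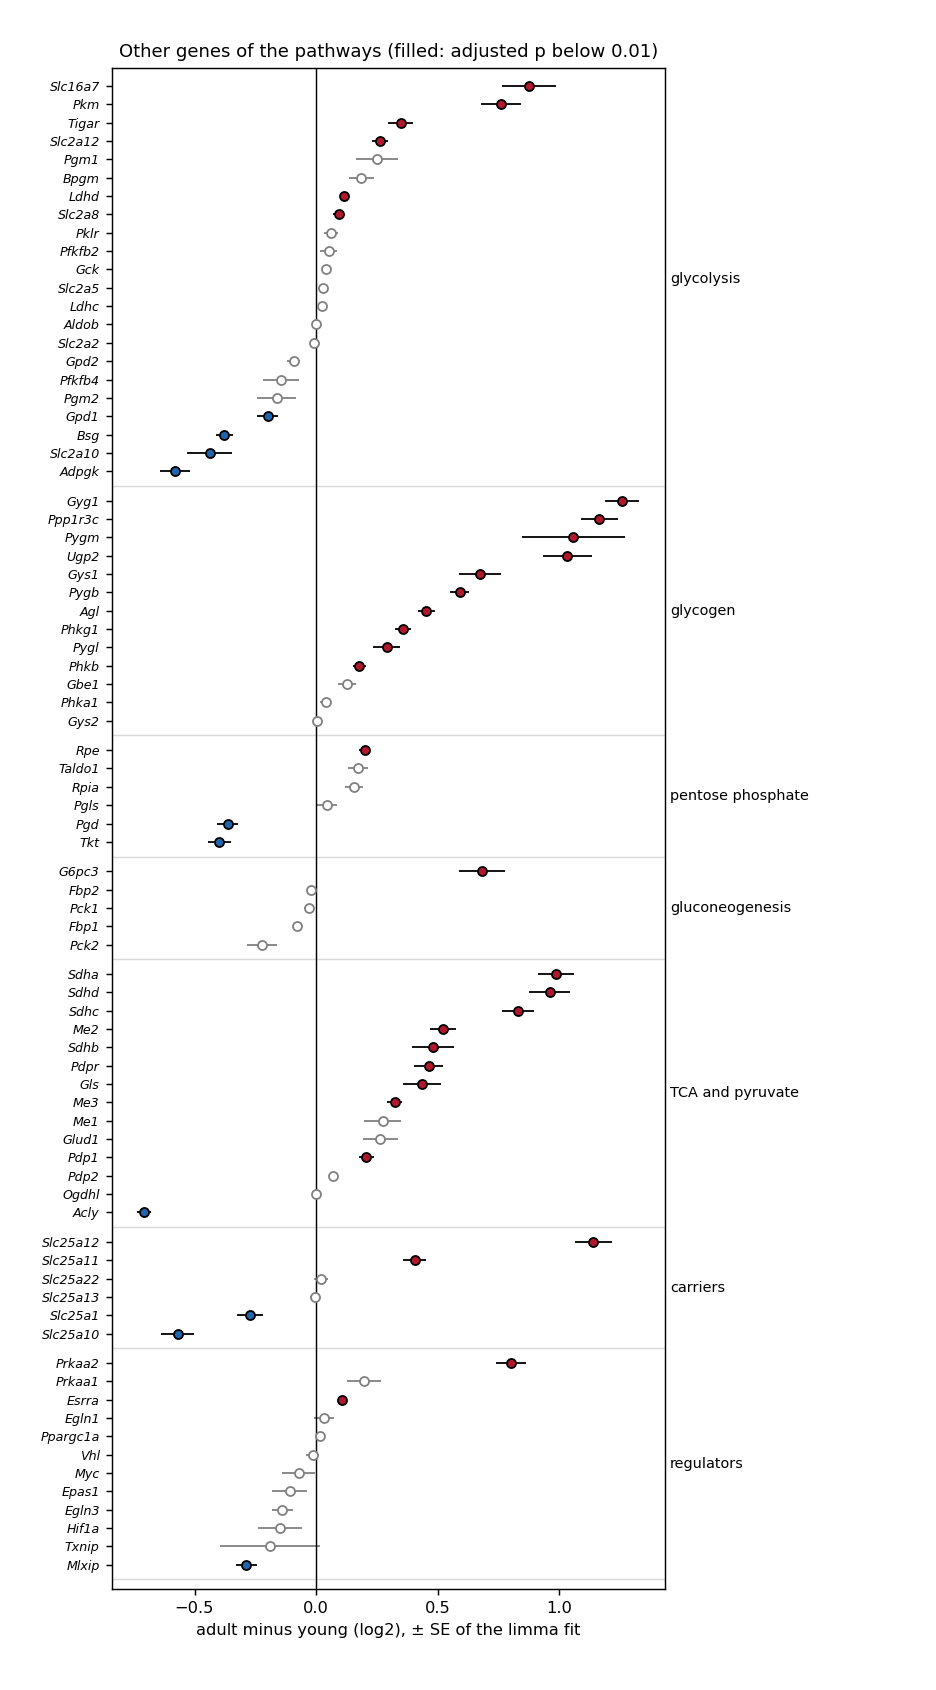
Difference between adult and young arteries on the log2 scale for other measured genes of glycolysis, glycogen, pentose phosphate, gluconeogenesis, TCA and pyruvate metabolism, mitochondrial carriers and regulators. Points, bars and colours are as in the plot of the 50 genes. Gyg1 has the highest difference, 1.26, and Acly the lowest, -0.71.

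Slc25a12, an aspartate-glutamate carrier of the malate-aspartate shuttle, rose by 1.14 ± 0.08 and Slc25a11, the oxoglutarate carrier of the shuttle, by 0.41 ± 0.05. Slc25a13, a second aspartate-glutamate carrier, did not pass (-0.0055 ± 0.02, limma adjusted p = 0.849). Slc25a10, the dicarboxylate carrier, and Slc25a1, the citrate carrier, were lower at -0.57 ± 0.07 and -0.27 ± 0.05. Acly, which splits citrate in the cytosol to acetyl-CoA, was the lowest gene of the list at -0.71 ± 0.03 (limma adjusted p = 3.8e-06). In the pentose phosphate pathway, Rpe, the ribulose phosphate epimerase, rose by 0.20 ± 0.02, while Pgd, the phosphogluconate dehydrogenase, and Tkt, transketolase, were lower at -0.36 ± 0.04 and -0.40 ± 0.05. G6pc3, the ubiquitous glucose 6-phosphatase, was the 1 gene of 5 on the gluconeogenesis list that passed, at 0.68 ± 0.10. Adpgk, the ADP-dependent glucokinase, was lower at -0.58 ± 0.06, Slc2a10 at -0.44 ± 0.09 and Gpd1 at -0.20 ± 0.04. The call of Slc25a1 was lost without any single array except adult replicate 2 or young replicate 1, that of Slc2a10 without any except adult replicate 1 and that of Gpd1 without any except young replicate 1, at adjusted p values of up to 0.0151, 0.0209 and 0.0217. Of 12 measured regulators, 16.7% were higher and 8.33% lower, no more than the 16.7% and 16% of all rows, and 9 did not pass. Prkaa2, a catalytic subunit of the energy sensor AMP-activated protein kinase, rose by 0.80 ± 0.06. Esrra, a nuclear receptor of mitochondrial genes, rose by 0.11 ± 0.01, and Mlxip, a glucose-sensing transcription factor, was lower at -0.29 ± 0.04. With ribosomal protein centring the calls of Esrra, Mlxip and Rpe were lost (limma adjusted p = 0.178, 0.078 and 0.0162). These p values followed the size of the difference rather than each gene's own spread.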

How the data were processed

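Total RNA of 8 samples was hybridised to 1 array each. The authors normalized the arrays by RMA (named in the submitters' processing notes, version not given in the sources used here) and quantile normalization, with a custom chip definition, version 14, that holds 1 probe set per Entrez gene, and deposited log2 expression values. All columns hold the same sorted values, from 6.80 to 13.82, so that no overall shift between ages can be seen, and even the dimmest row has a linear intensity of 111, which compresses differences of weakly expressed genes. The background correction and genome build are not given in the sources used here. The number of arrays limits the precision.

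Rows were named by the probe annotation and updated through the Entrez identifier. Of 19239 rows, 13094 kept their symbol, 3333 were updated, 26 differed from the current symbol and 139 had no current entry, and for these the listed symbol was used, while 1834 were named by identifier alone, Mpc2 among them, and 813 stayed unnamed. Pcx is listed as Pc in the reference.

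Groups came from the labels. The 2 ages were compared in R 4.3.3 by a linear model per row without covariates (limma 3.58.1, moderated two-sided test after lmFit and eBayes), with Benjamini-Hochberg adjustment over all rows and a threshold of 0.01 as in the methods. The methods name a one-way ANOVA, run as an alternative. Isoform pairs were compared by an exact two-sided permutation test of the within-array difference, adjusted over 16 pairs, threshold 0.05, and SE values of pairs come from both group SDs. The fit and the permutation test were tested on simulated data. The members, lists and alternatives were chosen with earlier results of these data known. Values in every array are given for genes called with a size of at least 0.5 and for a fixed set of isoforms. Of the other pathway genes, the 5 highest and 5 lowest called are named, except for a result that is not reported here, and the further ones were named after their values were seen. Promoter sequences of 250 bases are from RefSeq on GRCr8. Intensity sums of markers are on the linear scale. Alternatives were intensity trend with robust variances, array weights, centring on 31 ribosomal protein genes, a background correction that subtracted the lowest linear intensity and added 16, a filter that left out the dimmest 25% of rows, a block for the replicate number or for sample code numbers under and over 20, the removal of single arrays, an adjusted p below 0.05 and a fold of at least 1.5.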

Additional observations from a re-analysis of the deposited data

Results flagged for a closer look

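In 132 groups of 4 values, an adult and a young one for each of the 50 genes and 16 isoform pairs, the highest or lowest value was set against the others by Dixon's criterion, and 11 groups passed where chance alone gives about 6.6. Among adult arrays, Hk2 was high in replicate 4 (7.67, the others 7.49 to 7.50), Eno2 was high in replicate 4 (8.19, the others 7.83 to 7.88), Gpi was low in replicate 2 (11.86, the others 11.96 to 11.98), and Tpi1 and Mpc1 were low in replicate 1 (9.38, the others 9.53 to 9.56, and 8.50, the others 8.81 to 8.84). Among young arrays, Pgam2 was low in replicate 2 (7.25, the others 7.34 to 7.35), Idh3b and Aco1 were low in replicate 1 (9.11, the others 9.29 to 9.32, and 9.30, the others 9.40 to 9.41), Idh2 was high in replicate 3 (10.90, the others 10.80 to 10.82) and Eno1 was high in replicate 4 (9.39, the others 8.86 to 8.91). Slc16a1 minus Slc16a3 was low in young replicate 4 (-0.012, the others 0.15 to 0.18).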

How the results depend on the processing

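The count of genes called higher, 31, stayed between 25 and 34 under every alternative other than the added fold of 1.5, which left 14 higher and 2 lower. With each array left out in turn it was 25 to 32, with 3 to 4 called lower. Centring on ribosomal protein genes, which moved the median difference of all rows from 0.0024 to 0.0734, gave 29 higher and 2 lower, and over all rows 2417 higher and 1491 lower in place of 3216 and 3080. In that setting the adjusted p followed the size of the difference rather than each gene's own spread. These counts therefore cannot be read as the effect of the shift alone. The methods' ANOVA gave 27 and 3. All 16 alternatives that refit the data kept 25 of the 35 calls. The other calls, Slc2a1, Pfkfb1, Pgam2, Slc16a1, Dld, Pdk1, Pdk2, Cs, Ogdh and Got1, were each lost in at least 1. Calls gained in at least 1 were Pfkfb3, Eno1, Suclg2 and Idh2. Same-numbered adult and young samples correlated at -0.082, -0.035, 0.04 and 0.009 in their deviations from the group means, so no pairing by replicate number was seen. With 4 arrays per group, these values do not settle whether the numbers pair the samples. With the replicate block the counts were 25 higher and 3 lower, and among the other pathway genes 28 higher and 6 lower, against 32 and 10, Mlxip being lost (adjusted p = 0.0128). With the replicate block an isoform pair could reach a p of 0.125 at best, and with 1 array left out 0.0571, so these give no test. Dlst turned to 0.0587 with ribosomal protein centring, 0.0095 with the sample code number as a block, 0.0198 without adult replicate 4, 0.0242 without young replicate 1 and 0.0125 without young replicate 3, and Eno3 to -0.1895 without young replicate 2. With single arrays left out, Dlst ranged from -0.0479 to 0.0242 and Eno3 from -0.1895 to 0.253. Pfkfb3 minus Pfkfb1 turned to -0.0501 with the lowest intensity subtracted, where 12 of 16 pairs passed in place of 13, Idh3a minus Idh3b being lost. The cause of these changes was not tested. Genes near the lowest intensity, such as Pfkfb1, Hk3 and Pcx, have little room to differ.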
